A study of Mus musculus with 16 samples.

Results

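Mouse hepatic stellate cells cultured with Kupffer cells were compared with stellate cells cultured alone, on the 5 of 16 arrays whose titles name these conditions. The coculture group had 2 arrays (replicates 2 and 3) and the culture group 3 arrays (replicates 1, 2 and 3). In both groups the stellate cells were kept on plastic for 5 days with 10% fetal bovine serum. In coculture, hepatic macrophages shared the medium through transwell inserts and did not touch the stellate cells. The fit also used 3 arrays from mice with the common bile duct ligated for 15 days, 3 from mice given 4 injections of carbon tetrachloride (0.5 µl per g) and 5 of quiescent cells from normal mice. Cells of the last 3 groups were plated for 24 h before lysis. All cells came from male Balb/c mice of 8 to 10 weeks by density centrifugation and magnetic removal of cells bearing the macrophage surface protein that Adgre1 encodes, and total RNA was measured. The series' design lists 3 coculture samples, and the remaining 1 is not analysed here. Nothing in the labels says that samples are from separate animals, and the p-values therefore reflect the spread among these arrays, part or all of which may be technical.

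Stellate cells lie between hepatocytes and the sinusoidal endothelium, where they store retinoids, and after injury they turn into contractile cells that make extracellular matrix. Kupffer cells are the resident macrophages of the sinusoids and release cytokines such as interleukin-1 and tumour necrosis factor (TNF) when stimulated. The receptors of these cytokines signal through NF-kB and AP-1, transcription factors whose textbook targets include chemokines, matrix metalloproteinases and inhibitors of NF-kB itself.

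Values are log2 expression levels per gene, on which the unexpressed majority of probe sets lie near 2 (array medians 2.00 to 2.06). The 2 coculture arrays correlated with r = 0.950 across the 7823 tested genes, culture arrays among themselves with r between 0.944 and 0.982, and pairs across the groups with r between 0.815 and 0.915. Of the 16 stellate cell markers on the array, 14 were at log2 5 or more on both coculture arrays and 15 on all 3 culture arrays. Of the 15 tested, 5 were called lower (Pdgfrb, Reln, Lhx2, Colec11 and Tcf21) and 0 higher, with a median difference of -0.76, and without coculture replicate 2 there was 1 lower. Coculture replicate 2 was the lowest of the 5 arrays in 13 of these 15, and the summed linear level of the list was 25750 and 37990 in coculture against 41260, 43410 and 50820 in culture. Of 30 macrophage markers, 23 averaged below 3 in coculture. Adgre1 stood at 1.77 and 1.33 in coculture and at 1.49, 1.91 and 1.23 in culture. Clec4f, which marks Kupffer cells, was at 1.67 and 1.67 against 1.67, 1.76 and 1.66. The pan-leukocyte gene Ptprc was at 1.00 and 1.34 against 0.92, 1.28 and 0.96. The summed linear level of the macrophage list was 661.0 and 672.8 in coculture and 283.7, 292.8 and 497.2 in culture. Cd68, a lysosomal gene of macrophages, was the 1 of 4 tested members of that list called higher, at 7.81 and 7.82 in coculture against 3.77, 4.88 and 2.57 in culture. In quiescent cells Cd68 was at 6.06 to 7.77, from which coculture was not called different (0.80), and the list summed to between 178.3 and 320.8. The other tested members were higher in the mean but not called, with the lysozyme gene Lyz1 at 7.81 and 8.18 against 7.10, 7.02 and 7.98, its neighbour Lyz2 at 5.50 and 5.47 against 4.79, 4.59 and 5.45, and the cathepsin gene Ctss at 5.68 and 3.76 against 2.96, 4.16 and 3.44. The number of arrays limits the precision of all values.

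Coculture differed from culture in many genes and in both directions. At an adjusted p under 0.05 (limma, Benjamini-Hochberg over 7823 genes) 1205 genes were called, 15.4% of those tested. Of these 655 were higher in coculture (8.37%) and 550 lower (7.03%), and these shares are the background for the counts of gene groups that follow. The larger differences leaned towards increases, with 407 genes at least 2-fold higher (5.2%) and 330 at least 2-fold lower (4.22%), 186 against 92 at 4-fold and 38 against 13 at 16-fold. Both coculture arrays lay above all culture arrays in 1871 genes (23.9%) and below them in 1742 (22.3%). Against quiescent cells 3031 genes were called in coculture (38.7%) and 3291 in culture (42.1%), from comparisons that share the quiescent arrays. The median difference over all tested genes was 0.01 and the median absolute difference 0.32 (log2). A stricter count keeps the genes that were called in the fit and again without each of the 5 arrays in turn, and it held 185 genes higher (2.36%) and 121 lower (1.55%). Without coculture replicate 2 the calls came to 446, without coculture replicate 3 to 869, and without 1 culture array to between 820 and 970. Of the 7823 genes, 32 passed the filter on low values (log2 5 on 2 of the 16 arrays) through the coculture arrays alone, and 27 of them were called higher. For the genes below, a rise or fall is relative to culture, and quiescent levels are given for some genes only.

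**Figure D1:**
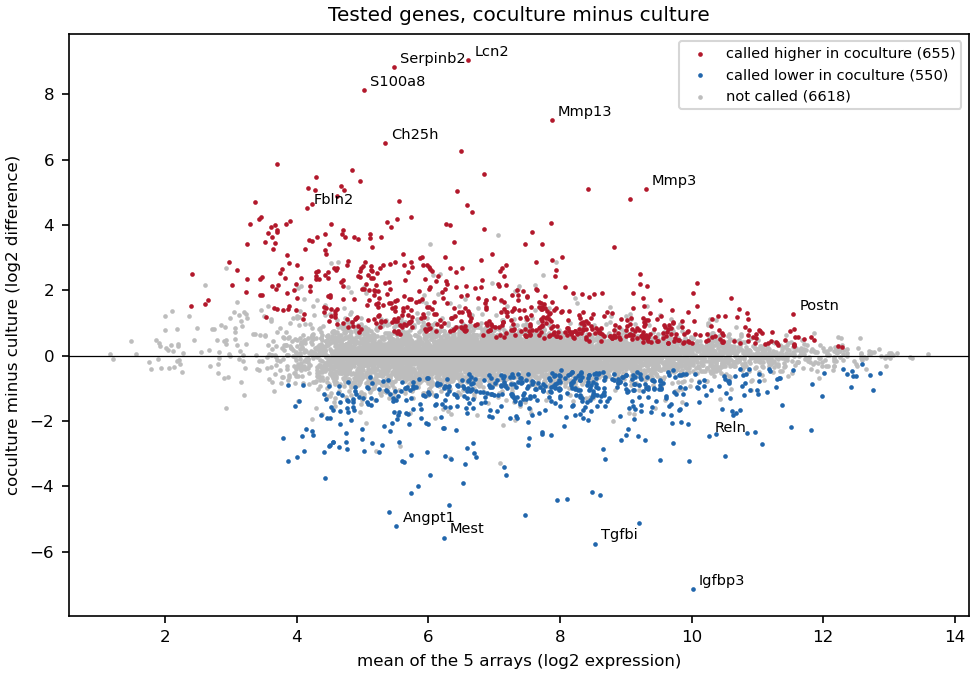
Each point is 1 of the 7823 tested genes, with its mean over the 5 coculture and culture arrays on the x axis (log2 expression) and coculture minus culture on the y axis (log2 difference). Red points (655) were called higher in coculture, blue points (550) lower and grey points were not called, and the largest differences are those of Lcn2 upwards and Igfbp3 downwards.

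The 20 largest increases included Lcn2, Serpinb2, S100a8, Ch25h and 3 matrix metalloproteinase genes. Lcn2 encodes lipocalin 2, an iron-siderophore binding protein of innate defence, and stood at log2 12.23 and 11.84 in coculture, against 3.09, 3.84 and 2.04 in culture. Both coculture arrays were far above all culture arrays and above the quiescent arrays, which lay between 3.82 and 6.42. The difference was 9.04 ± 0.66 (log2 ± SE, adjusted p = 1.06e-06, limma), and as its culture arrays lay near background the size of this difference can depend on the background correction. Serpinb2, the gene of plasminogen activator inhibitor 2, was at 11.19 and 10.35 in coculture, against 1.78, 2.63 and 1.41 in culture, and at 4.78 to 9.39 in quiescent cells. Its culture arrays were thus the lowest of the 3 groups and its coculture arrays the highest, with a coculture minus culture difference of 8.83 ± 0.89.

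S100a8, which encodes a calcium-binding alarmin, reached 11.06 and 8.70 in coculture, against 1.93, 1.99 and 1.38 in culture and 1.38 to 1.92 in quiescent cells. It was close to background outside coculture and passed the filter through the coculture arrays alone. S100a9, whose protein pairs with that of S100a8 in neutrophils and monocytes, stayed at 1.37 and 1.22 in coculture, against 1.75, 1.19 and 1.49 in culture. The neutrophil peroxidase gene Mpo was at 1.20 and 1.60 against 1.13, 1.53 and 1.06. Of the 12 neutrophil markers on the array 10 averaged below 3 in coculture, and the summed linear level of the list, 2246 and 457.5 in coculture against 36.1, 36.6 and 29.9 in culture, came largely from S100a8. The S100a8 probe set may also capture transcripts of similar sequence.

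Ch25h, which makes 25-hydroxycholesterol, was at 9.28 and 9.21 in coculture, against 2.65, 3.04 and 2.53 in culture and 1.35 to 6.19 in quiescent cells. The coculture arrays agreed closely and lay above every culture and quiescent array. Saa3, the serum amyloid A gene expressed outside the liver parenchyma, stood at 9.21 and 11.15 in coculture and at 5.34, 5.51 and 3.02 in culture. Slfn2, a Schlafen family gene, was at 8.17 and 6.97 against 1.77, 3.27 and 1.25. Fmo2, a flavin monooxygenase gene, was at 8.16 on both coculture arrays against 3.05, 2.73 and 2.71, and Fabp4, a fatty acid carrier of adipocytes and macrophages, was at 7.63 and 7.89 against 2.37, 3.84 and 1.83.

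Among the other large increases, Crct1, a cysteine-rich gene, rose by 6.26 ± 0.76, the prolactin family gene Prl8a9 by 5.85 ± 0.37 and Fam110c by 5.69 ± 0.65. The serpin gene Serpina12 rose by 5.20 ± 0.43, the cathepsin inhibitor gene Ctla2b by 5.08 ± 0.66 and Tfpi2, a Kunitz protease inhibitor, by 5.03 ± 0.57. Crct1 was a member of a list of keratin and squamous envelope genes in which 3 of 5 tested members were called higher. Another member, the epithelial keratin gene Krt19, was at 5.56 and 5.64 in coculture against 2.58, 2.54 and 1.88 in culture, while the cholangiocyte genes Epcam (2.41 and 2.67 against 2.01, 2.43 and 2.24) and Krt7 (1.37 and 1.57 against 1.74, 1.37 and 1.37) stayed near background. Prl8a9, Serpina12 and Krt19 passed the filter through the coculture arrays alone. The organic anion transporter gene Slco4a1 (5.09 ± 1.12) and Grem1, which encodes a secreted BMP antagonist (4.88 ± 1.13), were also among the 20 largest increases. Without coculture replicate 2 neither Slco4a1 (4.53) nor Grem1 (2.98) was called, and Slco4a1 was also not called with the 5 arrays fitted alone (adjusted p = 0.0514, limma).

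**Figure D2:**
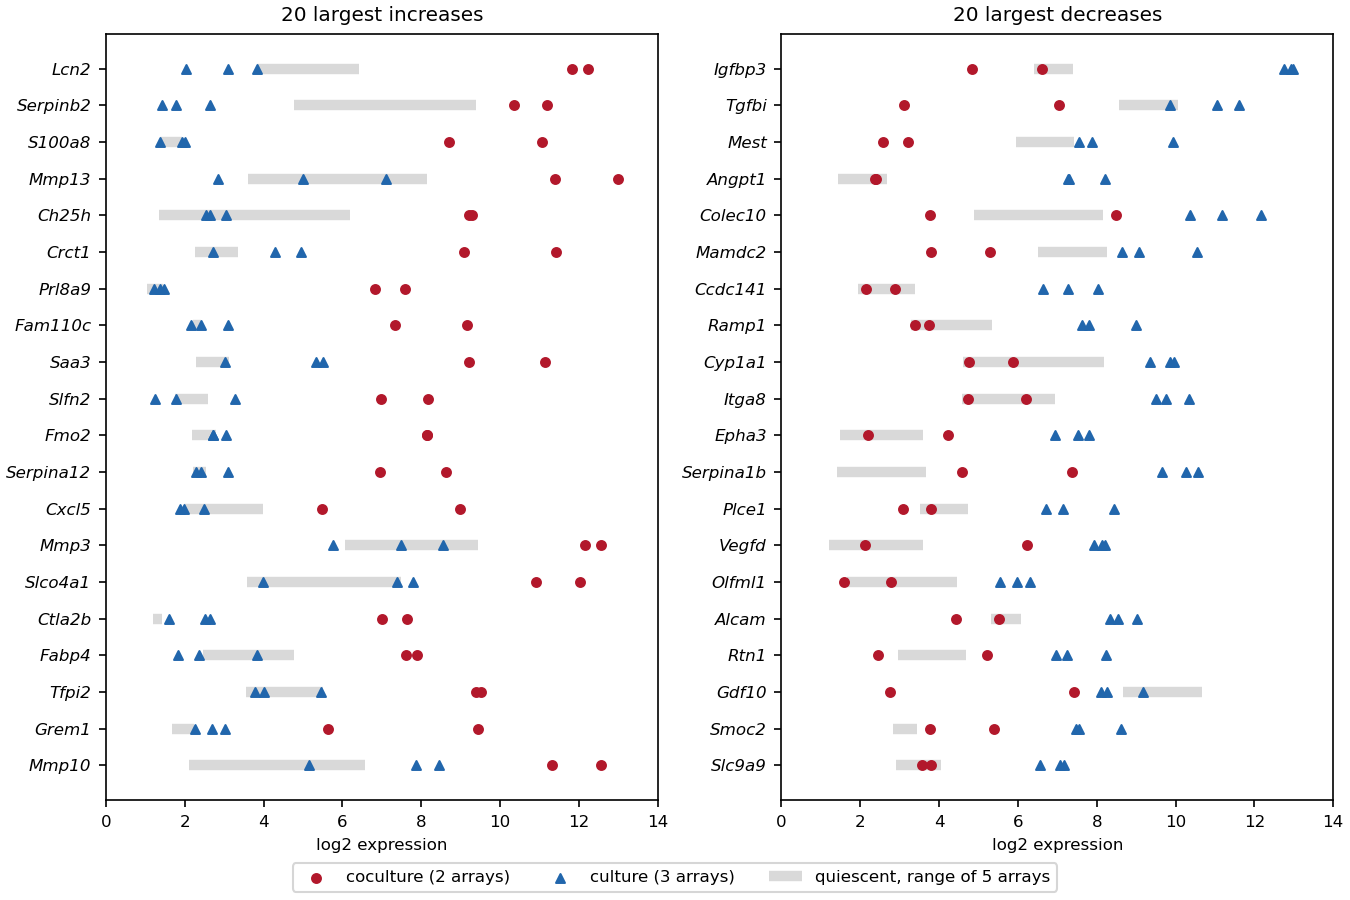
Log2 expression of the 20 genes with the largest increases (left) and the 20 with the largest decreases (right), with the 2 coculture arrays as red circles, the 3 culture arrays as blue triangles and the range of the 5 quiescent arrays as a grey bar. Genes were chosen for groups that do not overlap, and for Igfbp3 and Angpt1 the coculture points lie near or within the quiescent bar.

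The inducible matrix metalloproteinases are secreted enzymes that cleave collagens, proteoglycans and other matrix proteins. Of 4 tested genes 3 were called higher and 0 lower, against 8.37% of all genes, with a median difference of 4.94. Mmp13, the main interstitial collagenase of the mouse, was at 13.00 and 11.41 in coculture, against 5.00, 7.11 and 2.85 in culture. Its quiescent arrays lay between 3.61 and 8.16 with a median of 4.18. The culture arrays spanned more than 4 log2 units, and the coculture arrays lay above all of them (7.22 ± 1.19). The stromelysin gene Mmp3 stood at 12.56 and 12.17 in coculture, against 7.49, 8.55 and 5.76 in culture and 6.07 to 9.44 in quiescent cells. The second stromelysin gene Mmp10 stood at 12.56 and 11.31, against 7.86, 8.45 and 5.16 in culture and 2.11 to 6.57 in quiescent cells. For all 3 genes culture replicate 3 was the lowest of the 5 arrays. Mmp10 (4.16) was not called without coculture replicate 2. Mmp12, the macrophage elastase gene, was the tested gene not called, near background at 2.59 and 2.52 in coculture against 3.58, 2.61 and 3.43 in culture.

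These 3 genes lie close to each other on chromosome 9, and the promoter of each holds an AP-1 motif shortly before its start. The windows below show the motif (TGACTCA or its reverse complement TGAGTCA, searched on both strands) in capitals with up to 40 bases on each side, 5′ to 3′ on the strand of the gene, from RefSeq promoters of build GRCm38.p6. They are printed because all 3 genes were called higher.
Mmp3, chr9:7445736-7445821, plus strand: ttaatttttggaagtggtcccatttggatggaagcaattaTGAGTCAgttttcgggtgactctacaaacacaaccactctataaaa
Mmp10, chr9:7502239-7502325, plus strand: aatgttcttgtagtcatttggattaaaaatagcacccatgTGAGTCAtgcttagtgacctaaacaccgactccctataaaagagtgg
Mmp13, chr9:7272439-7272513, plus strand: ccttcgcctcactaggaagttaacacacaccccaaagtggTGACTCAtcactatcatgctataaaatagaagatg
The motif began 46 bases before the start in Mmp3, 63 in Mmp10 and 35 in Mmp13. Within 250 bases before the start it was present in 4 of 17 of the largest increases that have a promoter in the reference (23.5%), the fourth being Ctla2b. The share was 2.87% over all 6414 tested genes with a promoter, 4.56% over those called higher and 11.0% over those called at least 4-fold higher. It was 3.50% over genes called lower and 6.25% over those called at least 4-fold lower, as over the 20 largest decreases. The NF-kB motif described below, searched in 1 spelling, was in 0 of the same 17 promoters and in 1.06% of all. At that share 17 promoters are too few to show a lower one, and other spellings were not searched. A match of letters is a description of the window, and binding was not measured.

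Receptors and adaptors of interleukin-1 and TNF showed few calls. Of 15 tested genes 1 was called, Il1rap, the co-receptor of the interleukin-1 receptor, with 8.34 and 8.23 in coculture against 7.71, 7.08 and 5.89 in culture. That call was lost without either coculture array (1.34 without replicate 2, 1.45 without replicate 3) and with the 5 arrays alone (adjusted p = 0.15, limma). The interleukin-1 receptor gene Il1r1 was at 6.77 and 8.25 against 8.81, 8.27 and 8.26 and missed the threshold (-0.94 ± 0.37) except in the fit lacking coculture replicate 3 (-1.68). The TNF receptor genes Tnfrsf1a (-0.02 ± 0.28) and Tnfrsf1b (-0.65 ± 0.38) were not called. The ligand genes themselves were near background in both groups, with Il1b at 1.79 and 2.09 in coculture against 1.46, 1.80 and 1.60 in culture and Tnf at 2.05 and 2.09 against 1.94, 2.09 and 1.59.

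Among NF-kB subunits and inhibitors 3 of 14 were called higher and none of the 14 lower, with a median difference of 0.35. Tnfaip3, the deubiquitinase A20 that limits NF-kB signalling, was at 6.52 and 5.27 in coculture against 3.99, 3.26 and 3.09 in culture (2.45 ± 0.47). Nfkbiz, an inducible nuclear inhibitor-like cofactor, was at 9.03 and 9.66 against 6.92, 7.03 and 7.74, and the TNF-induced gene Tnfaip2 was at 9.98 and 9.56 against 6.89, 6.73 and 5.46. All 3 genes had both coculture arrays above the culture arrays. Quiescent cells were at 3.15 to 4.47 for Tnfaip3, 7.75 to 9.41 for Nfkbiz and 7.72 to 9.66 for Tnfaip2. Against quiescent cells Tnfaip3 was called higher in coculture (2.14), while Nfkbiz (0.69) and Tnfaip2 (1.00) were not called. Tnfaip3 (1.83) was not called without coculture replicate 2. Nfkbia, the classical inhibitor, was at 11.13 and 10.82 against 10.42, 10.51 and 10.69 and was not called (0.43 ± 0.20).

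Most tested chemokines that attract neutrophils or monocytes were called higher. In the list of neutrophil-attracting chemokines, in which Pf4 was counted, 4 of 5 tested were called higher. The median difference, 3.60, was that of Pf4, which is known as a platelet chemokine. Of 6 tested monocyte and lymphocyte chemokines 4 were called higher (median 2.27), with 0 lower in either list. Without coculture replicate 2 there were 2 and 2. Cxcl5 was at 8.98 and 5.48 in coculture, against 1.97, 2.49 and 1.88 in culture and 1.97 to 3.98 in quiescent cells. Cxcl1 was at 10.55 and 8.72 against 6.38, 7.70 and 6.06, and Cxcl3 at 8.64 and 3.87 against 2.50, 1.98 and 2.16. In these 3 genes coculture replicate 2 was well above replicate 3, and both were above the culture arrays. Quiescent cells were at 7.63 to 9.69 for Cxcl1 and 3.21 to 5.18 for Cxcl3, ranges that reached above coculture replicate 3. Pf4, the platelet factor 4 chemokine, had nearly equal coculture arrays at 7.33 and 7.21, against 4.11, 3.90 and 3.00 (3.60 ± 0.36).

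The monocyte chemoattractant Ccl7 was at 9.52 and 7.93 in coculture, against 5.35, 5.63 and 3.18 in culture (4.00 ± 0.72). Ccl2, which binds the same receptor, was at 11.06 and 10.12 against 8.61, 9.22 and 7.58 (2.12 ± 0.56). Cxcl16, a membrane-bound chemokine, was at 8.56 and 8.64 against 5.53, 6.87 and 6.12, and Cxcl14 at 9.88 and 8.70 against 5.94, 5.89 and 2.88. Each of these 4 genes had separate groups. Cxcl10, an interferon-induced T cell attractant, had overlapping groups, with 9.52 and 5.69 against 9.87, 10.82 and 6.06, and was not called. The calls of Cxcl1 (2.00), Cxcl3 (1.65), Cxcl14 (3.80) and Ccl2 (1.65) were lost without coculture replicate 2, and without culture replicate 3 those of Cxcl14 (3.38) and Ccl2 (1.67). Fitted on the 5 arrays alone these 4 were not called either, while Cxcl5, Pf4, Ccl7 and Cxcl16 were called in each of these fits.

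Of the 7 tested chemokines with a promoter in the reference, 4 held an NF-kB motif within 250 bases before the start (57.1%, against 1.06% of all 6414 promoters). The motif was spelled GGANTTTCC, with N for any base, and searched on both strands. It is in capitals in the windows below, shown for 3 genes close together on chromosome 5, of which Cxcl1 and Cxcl3 were called higher and Cxcl2 was not called (2.08).
Cxcl1, chr5:90891135-90891223, plus strand: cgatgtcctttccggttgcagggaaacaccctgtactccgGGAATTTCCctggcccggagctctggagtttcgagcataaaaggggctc
Cxcl2, chr5:90903763-90903851, plus strand: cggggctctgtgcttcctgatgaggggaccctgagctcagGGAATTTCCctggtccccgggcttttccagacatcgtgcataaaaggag
Cxcl3, chr5:90785989-90786077, plus strand: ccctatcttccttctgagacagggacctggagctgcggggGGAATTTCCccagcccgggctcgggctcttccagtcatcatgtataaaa
The same 9 letters stand 70, 96 and 72 bases before the start of Cxcl1, Cxcl2 and Cxcl3. The fourth match was in Cxcl10. Among all genes called higher the share with this motif was 1.71%, and among those called lower 1.40%.

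Of 7 tested interleukins and related cytokines 2 were called higher and, without coculture replicate 2, 0. The 2 were Clcf1, a ligand of the gp130 receptor family (6.72 and 4.46 in coculture against 2.11, 2.46 and 1.80 in culture), and the alarmin Il33 (5.31 and 6.69 against 4.43, 3.32 and 2.59). Quiescent cells were at 3.20 to 6.52 for Clcf1 and 5.50 to 8.82 for Il33. Neither gene was called in coculture against quiescent cells (1.02 and -1.67). Clcf1 was not called without coculture replicate 2 (2.34) or culture replicate 3 (3.31), and its other probe set gave a difference of 1.26, against 3.47 on the probe set used. Il33 was not called without coculture replicate 2 (3.24) or 3 (1.86), culture replicate 2 (2.49) or 3 (2.12) or several other single arrays, nor with the 5 arrays alone, no filter or no trend (2.55 in each). Il6 was at 9.03 and 8.29 in coculture, against 9.04, 7.77 and 2.79 in culture and 1.67 to 4.95 in quiescent cells, so that culture replicate 3 stood apart from the other 4 arrays, and it was not called (2.13 ± 1.31), except with the replicate number as a block (3.38, adjusted p = 0.0403, limma). Il6st, which encodes the shared receptor gp130, fell by 1.16 ± 0.38 with an adjusted p of 0.0478 (limma), and 15 of the 25 alternatives ended that call.

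Acute phase and antimicrobial genes included 5 called higher and 1 lower of 11 tested, the 5 being Lcn2, S100a8, Saa3, Cfb and Cp. Cfb, the complement factor B gene, was at 8.37 and 8.39 in coculture against 3.78, 4.72 and 2.47 in culture (4.72 ± 0.56). Cp, which encodes ceruloplasmin, was at 10.45 and 10.96 against 7.91, 8.75 and 7.98 (2.49 ± 0.31). In both genes the coculture arrays lay close together and above the culture arrays. These 5 genes were called again without any 1 of the 5 arrays. Steap4, a metalloreductase gene, fell by 2.58 ± 0.54 but was not called without coculture replicate 2 (-1.57). Other complement genes of the list differed little, such as Serping1 (0.02) and C2 (0.08).

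Some genes known mainly from leukocytes also rose, and they were picked out after their values were seen. Srgn, the proteoglycan core of secretory granules, was at 8.53 and 7.53 in coculture against 3.70, 4.51 and 3.32 in culture. Cd53, a leukocyte tetraspanin, was at 6.33 and 5.14 against 2.13, 2.51 and 2.23, and the cytoskeletal adaptor gene Hcls1 was at 7.28 and 6.23 against 4.40, 3.99 and 3.26. All 3 genes were higher on coculture replicate 2 than on replicate 3, and neither array overlapped the culture arrays. On these same arrays members of the macrophage list went different ways. Cd68 was higher in coculture and the summed level of the list was higher on both coculture arrays than on any culture array, as given above, while C1qa was at 1.40 and 1.16 against 1.49, 1.45 and 1.19, Csf1r was at 3.31 and 3.34 against 3.51, 3.23 and 3.10 and Marco was at 1.43 and 1.26 against 1.26, 1.43 and 1.14. Cd14, the lipopolysaccharide co-receptor gene, was at 4.74 and 4.11 against 1.77, 2.44 and 1.93, with separate groups, but did not reach the filter and was not tested. Cd53 and Hcls1 passed the filter through the coculture arrays alone. The part that other cells played in Cd68, Srgn, Cd53 and Hcls1 was not tested, and in bulk samples more expressing cells and more RNA per cell cannot be told apart.

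Contact and adhesion molecules moved in both directions, with 7 of 13 tested called higher and 2 lower (median 0.97), and 4 higher when either coculture array was left out. Jam2, a junctional adhesion molecule gene, was at 7.25 and 6.58 in coculture against 2.72, 4.15 and 2.72 in culture (3.72 ± 0.54). Cd200, whose protein restrains myeloid cells through their CD200 receptor, was at 8.94 and 8.77, against 6.96, 6.97 and 6.63 in culture and 1.21 to 2.16 in quiescent cells (2.00 ± 0.33). Its level was higher in culture than in quiescent cells and higher again in coculture, with no overlap between the 3 groups. The hyaluronan receptor Cd44 was higher than in culture by 1.33 ± 0.25, with coculture arrays at 9.28 and 9.75 and quiescent arrays at 9.24 to 10.00. The co-stimulatory receptor Cd40 was at 6.67 and 5.28 against 3.58, 4.46 and 3.53 but was not called without coculture replicate 2 (1.42) or with the 5 arrays alone. The 2 decreases were those of Alcam, an activated leukocyte adhesion molecule gene (5.53 and 4.44 against 8.54, 8.34 and 9.03), and Tnfrsf11b, the osteoprotegerin gene (-1.31 ± 0.23). Jam2, Cd40 and Tnfsf9 passed the filter through the coculture arrays alone.

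The next 4 genes belong to no list and were chosen after their values were seen. The mouse TRAIL decoy receptor gene Tnfrsf22 rose by 3.79 ± 0.40 and Tnfrsf23 by 4.71 ± 0.43. Tnfrsf23 was at 6.34 and 6.03 in coculture against 1.26, 1.81 and 1.36 in culture. The interleukin-13 decoy receptor Il13ra2 was at 5.72 and 6.15 against 1.92, 1.98 and 1.38, and the necroptosis kinase gene Ripk3 at 8.93 and 8.51 against 6.44, 6.34 and 5.34. In each of these 4 genes the coculture arrays lay close together and above the culture arrays, and Tnfrsf23 and Il13ra2 passed the filter through the coculture arrays alone.

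Prostaglandin genes included 3 called higher of 8 tested and 0 lower. Pla2g4a, the cytosolic phospholipase that releases arachidonic acid, was at 8.59 and 8.54 in coculture against 6.63, 6.86 and 6.83 in culture (1.79 ± 0.36). The prostaglandin transporter Slco2a1 was at 7.81 and 7.10 against 3.89, 4.89 and 2.71, and the prostaglandin E2 receptor Ptger4 at 4.69 and 5.02 against 3.19, 2.29 and 2.01. All 3 were called without any 1 of the 5 arrays. Ptgs2, which encodes cyclooxygenase 2, was at 9.53 and 6.62 against 5.55, 5.25 and 3.18 and was not called (3.42 ± 1.46), although its groups did not overlap, and the call was made in the fit lacking quiescent replicate 4 (3.42).

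The plasminogen system, the protease cascade that acts upstream of several metalloproteinases, had 5 of 15 genes called higher and 0 lower (median 1.37), and 3 higher without culture replicate 3. Plau, the urokinase gene, was at 7.27 and 5.80 in coculture against 2.97, 2.92 and 3.48 in culture (3.41 ± 0.51), and its receptor gene Plaur at 7.39 and 5.77 against 4.81, 4.38 and 3.41 (2.38 ± 0.70). The inhibitor genes Serpinb2 and Tfpi2 were described above. Plau was called without any 1 of the 5 arrays, and Plaur was not called without coculture replicate 2 (1.57), culture replicate 2 (2.47) or culture replicate 3 (1.99), nor with the 5 arrays alone.

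Of 18 other metalloproteinases and their inhibitors 7 were called lower, 3 higher and 8 not called (median -0.30). Lacking coculture replicate 2, the fit called 2 lower and 1 higher. Adamts5, an aggrecan-cleaving protease gene, was at 7.35 and 7.39 in coculture, against 9.98, 9.78 and 10.12 in culture and 3.71 to 5.69 in quiescent cells. Its coculture arrays lay between those of the other groups, and the difference from culture was -2.59 ± 0.43. Timp1, the inducible inhibitor of metalloproteinases, was at 11.05 and 10.58 against 8.29, 9.07 and 5.16 (3.31 ± 0.79). Mmp2, gelatinase A, was at 5.63 and 6.71 against 7.21, 7.73 and 8.20 (-1.54 ± 0.38), and Reck, a membrane inhibitor of metalloproteinases, at 7.66 and 8.66 against 9.67, 9.53 and 10.19 (-1.64 ± 0.32). Adam12, a protease gene of activated mesenchyme, was higher in coculture than in culture by 2.58 ± 0.36. It was at 6.15 and 6.85 in coculture against 3.48, 3.65 and 4.63 in culture, and at 6.45 to 6.72 in quiescent cells. Timp1 (3.08), Mmp2 (-1.0004) and Reck (-1.14) were not called without coculture replicate 2, and Timp1 and Mmp2 not with the 5 arrays alone.

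**Figure D3:**
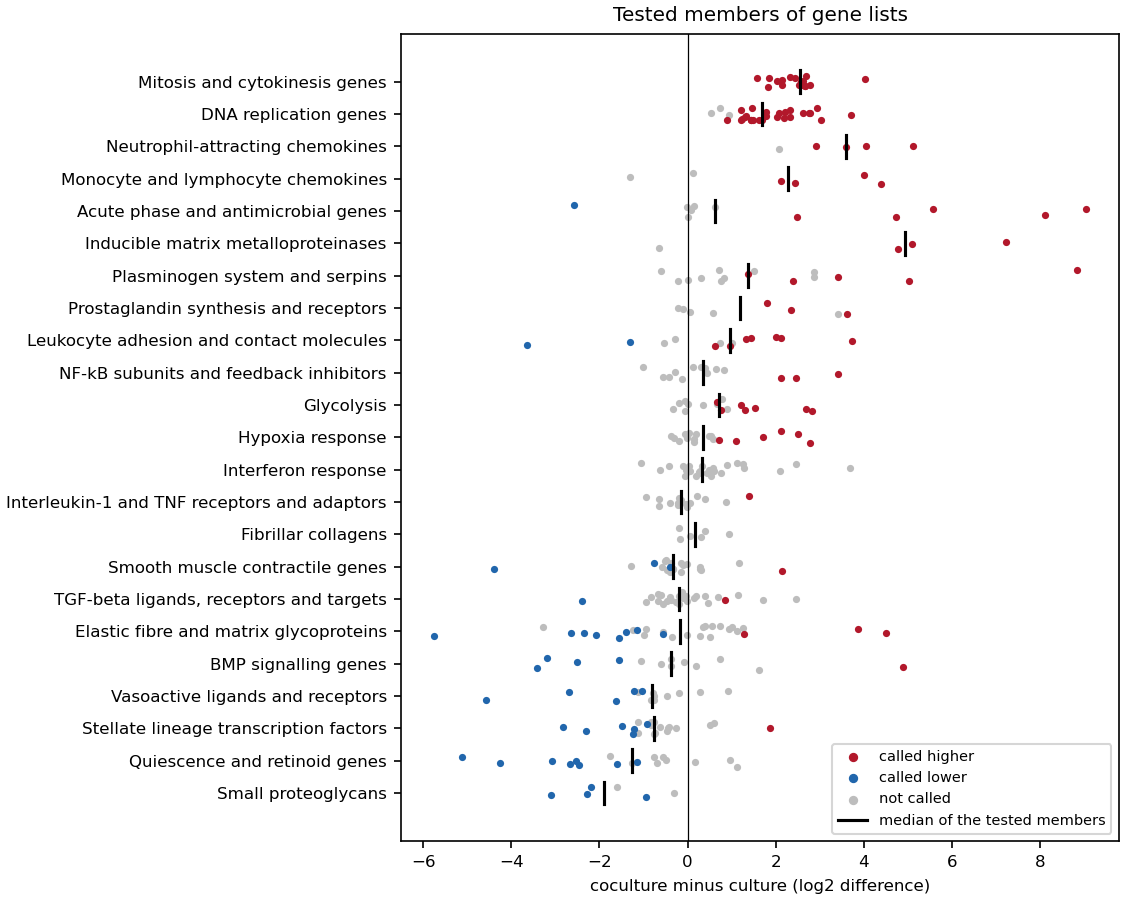
Coculture minus culture (log2 difference, x axis) for the tested members of 23 gene lists (y axis), with members called higher in red, called lower in blue and not called in grey, and the median of each list as a black bar. All 18 mitosis genes lie to the right of 0 and all 6 small proteoglycans to the left.

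Most tested genes of DNA replication and mitosis were called higher. Of 18 tested mitosis and cytokinesis genes all 18 were called higher, with differences between 1.58 and 4.03 and a median of 2.54, and of 29 tested replication genes 26 were called higher and 0 lower (median 1.69). The background share called higher was 8.37%. A further 25 mitosis genes on the array did not pass the filter, and 1 of the 18, Nuf2, passed through the coculture arrays alone. Cdk1, the kinase that drives entry into mitosis, was at 7.91 and 8.79 in coculture, against 6.39, 6.19 and 6.06 in culture. Bub1, a spindle checkpoint kinase, was at 6.03 and 7.83 against 2.43, 2.63 and 3.64 (4.03 ± 0.53), and Top2a, a DNA topoisomerase of dividing cells, at 5.90 and 7.47 against 4.30, 3.73 and 4.21 (2.61 ± 0.48). In each of these 3 genes coculture replicate 3 was the highest array and replicate 2 the next.

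Licensing factors of replication origins showed the same order of arrays. Cdc6 was at 6.18 and 7.12 in coculture against 2.68, 3.17 and 2.97 in culture (3.71 ± 0.35), Cdt1 at 8.33 and 8.77 against 5.21, 5.82 and 5.84 (2.93 ± 0.35), and Mcm5, part of the replicative helicase, at 9.18 and 9.85 against 6.94, 6.71 and 7.02 (2.63 ± 0.33). These coculture arrays lay at least 2 log2 units above the culture arrays. Coculture replicate 3 exceeded replicate 2 in 18 of 18 mitosis genes, by a median of 1.53, and in 28 of 29 replication genes, by a median of 0.68. Without coculture replicate 3 the number called higher was 8 of 18 mitosis and 14 of 29 replication genes, and without coculture replicate 2 it was 18 and 23. Among 21 CDK inhibitors and D cyclins 1 was called higher, Btg1 (1.23 ± 0.28), and 1 lower, the retinoblastoma gene Rb1 (-0.74 ± 0.24), and Btg1 was not called without coculture replicate 2 (1.27) or 3 (1.18), nor Rb1 without any 1 of the 5 arrays (-0.85 to -0.62).

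The promoters of 6 of 15 tested mitosis genes in the reference held the cell cycle homology region motif TTTGAA on either strand within 250 bases before the start, against 10.2% of all promoters and 13.1% of those of genes called higher. The motif was also in 5 of 16 of the largest decreases (31.2%) and in 2 of 23 replication genes (8.7%), so it was not particular to the genes called higher. The pentamer CCAAT, which often accompanies this motif, was present in 66.7% of the mitosis gene promoters against 35.9% of all. Overlap with other motifs was not removed. Windows with the first of these motifs in capitals are given for 4 genes called higher, as examples of the group that moved together, on the strand of each gene and in build GRCm38.p6.
Cdk1, chr10:69352913-69352967, minus strand: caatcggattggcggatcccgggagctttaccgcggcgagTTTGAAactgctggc
Cdc20, chr4:118437344-118437401, minus strand: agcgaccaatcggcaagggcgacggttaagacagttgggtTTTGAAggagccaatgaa
Mki67, chr7:135716450-135716535, minus strand: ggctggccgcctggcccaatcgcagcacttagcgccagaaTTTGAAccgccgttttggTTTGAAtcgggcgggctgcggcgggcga
Ube2c, chr2:164769860-164769928, plus strand: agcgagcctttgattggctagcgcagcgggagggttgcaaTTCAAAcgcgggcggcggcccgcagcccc
The Mki67 window holds the motif at 2 places, and in Ube2c it is on the opposite strand. In Cdk1 the copy shown began 15 bases before the start and another copy 71 bases before it.

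Of 16 glycolysis genes 7 were called higher, 0 lower and 9 not called (median 0.72). Pkm, the pyruvate kinase of proliferating cells, was at 10.97 and 11.02 in coculture against 9.79, 9.70 and 8.91 in culture (1.53 ± 0.21), and at 10.59 to 11.15 in quiescent cells. Pgk1 rose by 1.30 ± 0.17 and Tpi1 by 1.20 ± 0.14, both glycolytic enzymes, and the lactate exporter gene Slc16a3, which passed the filter through the coculture arrays alone, was at 5.38 and 5.77 against 3.52, 2.82 and 1.91 (2.83 ± 0.44). The groups did not overlap in any of these 4 genes, and each was called without any 1 of the 5 arrays. Hk2, the inducible hexokinase, was at 8.05 and 7.81 against 6.43, 5.25 and 4.08 but not called without coculture replicate 2 (2.56) or with the 5 arrays alone. The glucose transporter Slc2a1 differed by -0.05 and was not called.

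Of 18 genes of the hypoxia response 6 were called higher and 0 lower (median 0.34), with 4 higher in the fit lacking coculture replicate 2 and 3 in that lacking replicate 3. Ddit4, an inhibitor of mTOR signalling, was at 8.63 and 9.06 in coculture against 5.90, 6.19 and 6.13 in culture (2.77 ± 0.42). The oxidoreductase gene Ero1a rose by 1.70 ± 0.27, while its other probe sets differed by 0.18 and 0.60. Hif1a, the transcription factor of the response, was at 11.69 and 11.60 against 10.82, 10.99 and 10.98 (0.71 ± 0.17) but was not called without coculture replicate 2 (0.67). Bnip3 (0.89) and Egln3 (1.67) were not called without coculture replicate 3. Vegfa, the endothelial growth factor gene, was at 6.87 and 7.71 against 5.11, 5.41 and 5.02, and its call was lost without any 1 of the 5 arrays (1.69 to 2.53). In a separate list of angiogenic factors and receptors 4 of 13 tested genes were called higher and 3 lower (median -0.04). Its member Angptl4, an inhibitor of lipoprotein lipase, was at 10.22 and 8.52 in coculture against 5.14, 5.03 and 4.06 in culture (4.62 ± 0.48). Mitochondrial respiratory chain genes had a median of 0.05, with 3 of 34 called higher and 0 in the fit lacking coculture replicate 2.

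Of 26 genes of the unfolded protein and amino acid stress responses 6 were called higher and 0 lower, 0 of the 6 remained in all 5 fits without 1 array, and 1 gene was called higher in the fit lacking coculture replicate 2. Psat1, of serine synthesis, was at 8.82 and 8.29 in coculture against 6.59, 6.61 and 6.42 in culture (2.01 ± 0.46, and 1.75 and not called without coculture replicate 2). Cth, which makes cysteine and was chosen after its value was seen, was at 6.99 and 5.77 against 2.07, 1.96 and 2.73 (4.12 ± 0.60). Of 27 oxidative stress and glutathione genes 3 were called higher, 4 lower and 20 not called (median -0.09), against 4 higher and 1 lower in the fit lacking coculture replicate 2. Sod2, the mitochondrial superoxide dismutase, was at 11.37 and 11.41 against 10.42, 10.32 and 9.92 (1.17 ± 0.22). Gsta4, a glutathione transferase gene, was at 2.90 and 4.41 in coculture, against 6.13, 6.13 and 6.94 in culture and 8.87 to 9.80 in quiescent cells. The coculture arrays were below the culture arrays, and these below the quiescent arrays (-2.75 ± 0.41).

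Sterol genes other than those of oxysterol synthesis showed no calls. Of 24 tested genes 2 were called higher, Ch25h and Cyp7b1, the oxysterol hydroxylase gene (8.56 and 10.44 in coculture against 5.56, 6.59 and 6.16 in culture), and Cyp7b1 was not called without coculture replicate 3 (2.46). The 2 coculture arrays differed in this list, with replicate 3 above replicate 2 in 18 of 24 genes by a median of 0.98. Hmgcs1, an early enzyme of the sterol pathway, was at 8.44 and 9.84 in coculture against 9.54, 9.43 and 9.93 in culture, and Sqle, a later one, at 4.66 and 6.70 against 5.49, 4.96 and 6.26. Neither gene was called. Of 20 lipid droplet and triglyceride genes 3 were called higher and 1 lower, and the fatty acid carrier Fabp5 rose by 1.77 ± 0.30.

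Decreases were led by Igfbp3, the main carrier of insulin-like growth factors. Igfbp3 was at 4.83 and 6.62 in coculture, against 12.98, 12.74 and 12.93 in culture and 6.42 to 7.40 in quiescent cells. Of the coculture arrays 1 was within the quiescent range and the other below it. The difference of -7.16 ± 0.39 (adjusted p = 6.53e-08, limma) corresponds to 143-fold. Angpt1, the ligand of the endothelial receptor Tie2, was at 2.38 and 2.39 in coculture, against 7.31, 7.28 and 8.20 in culture and 1.43 to 2.68 in quiescent cells. Both coculture arrays were within the quiescent range. Mest, an imprinted gene, was at 2.58 and 3.20 in coculture, against 7.55, 7.89 and 9.95 in culture and 5.95 to 7.42 in quiescent cells, so that its coculture arrays were below both other groups.

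Several matrix and adhesion genes were among the largest decreases. Tgfbi, a secreted adhesion protein induced by transforming growth factor beta, was at 3.11 and 7.05 in coculture, against 9.86, 11.05 and 11.60 in culture and 8.55 to 10.06 in quiescent cells. Itga8, the integrin subunit of contractile mesenchyme, was at 4.73 and 6.22, against 9.76, 9.50 and 10.35 in culture and 4.58 to 6.95 in quiescent cells. In both genes the coculture arrays lay below the culture arrays, and in Itga8 within the quiescent range. The matrix gene Smoc2 fell by 3.31 ± 0.46, Olfml1 by 3.76 ± 0.65 and the MAM domain gene Mamdc2 by 4.88 ± 0.62. Serpina1b, of the alpha-1 antitrypsin family, fell by 4.19 ± 0.71, and its probe set and that of Tgfbi may also capture similar transcripts.

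The dioxin-inducible cytochrome gene Cyp1a1 was at 4.75 and 5.87 in coculture against 9.87, 9.36 and 9.96 in culture (-4.42 ± 0.82). Epha3, an ephrin receptor gene, was at 2.20 and 4.23 against 6.95, 7.53 and 7.80, and Plce1, a phospholipase C gene, at 3.08 and 3.81 against 6.72, 7.14 and 8.45. The groups were separate in all 3 genes. Ccdc141 fell by 4.80 ± 0.48, Rtn1 by 3.65 ± 0.66 and Slc9a9 by 3.26 ± 0.39, and Rtn1 was not called with the 5 arrays alone. The apoptotic cell receptor gene Mertk, chosen after its value was seen, was at 5.46 and 4.64 against 7.29, 7.29 and 7.40 (-2.27 ± 0.36).

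In some of the larger decreases 1 coculture array carried much of the difference. Colec10, a collectin gene of stellate cells, was at 3.76 and 8.50 in coculture against 10.38, 11.17 and 12.17 in culture, and the related collectin gene Colec11 at 3.11 and 9.001 against 8.98, 10.05 and 11.91. The lymphatic growth factor gene Vegfd was at 2.12 and 6.23, against 8.13, 7.92 and 8.21 in culture and 1.21 to 3.60 in quiescent cells. Gdf10, a BMP family ligand, was at 2.76 and 7.43 against 8.12, 8.26 and 9.18. In these genes coculture replicate 2 was at least 4 log2 units below replicate 3, and for Colec11 replicate 3 was within the culture range. None of these 4 genes was called without coculture replicate 2 (Colec10 -2.75, Colec11 -1.31, Vegfd -1.85, Gdf10 -1.08), nor with the 5 arrays alone. Gdf10 was also not called without culture replicate 1 (-3.62), 2 (-3.55) or 3 (-3.09), and Colec11 not without culture replicate 3 (-3.45).

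Of 14 genes in a list of vasoactive ligands and receptors 5 were called lower, 0 higher and 9 not called (median -0.80, background 7.03% lower). Ednrb, the endothelin B receptor, was at 8.59 and 10.32 in coculture, against 11.82, 11.98 and 12.63 in culture and 11.67 to 12.22 in quiescent cells. The coculture arrays were below those of both other groups (-2.69 ± 0.48). Ramp1, a subunit of the receptor for calcitonin gene-related peptide, was at 3.74 and 3.39 against 7.63, 7.80 and 8.99, and Npr2, the receptor of C-type natriuretic peptide, at 4.83 and 4.99 against 6.28, 6.37 and 6.96. The soluble guanylate cyclase genes Gucy1b1 (-1.04 ± 0.22) and Gucy1a1 (-1.22 ± 0.32), which carry the response to nitric oxide, were called lower but not without coculture replicate 2 (Gucy1b1 -0.95, Gucy1a1 -0.62), and Gucy1a1 also not without culture replicate 3 (-0.98) or with the 5 arrays alone.

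Growth factor and receptor genes moved both ways, with 2 of 14 of the PDGF, FGF, HGF and EGF families higher and 4 lower, against 0 and 2 in the fit lacking coculture replicate 2. Fgfr2 was at 7.33 and 8.90 in coculture, against 10.46, 10.50 and 11.40 in culture and 8.95 to 10.08 in quiescent cells. Fgfr1, a related receptor, was at 7.42 and 6.07 in coculture against 5.22, 5.05 and 4.74 in culture, and at 7.94 to 9.21 in quiescent cells. One receptor was thus lower and the other higher in coculture than in culture, while against quiescent cells Fgfr1 was called lower in coculture (-1.81). Btc, an EGF receptor ligand, fell by 2.63 ± 0.45. Fgf2 was at 6.48 and 5.28 against 3.80, 3.04 and 2.99 (2.60 ± 0.67). Fgfr1 (1.07) and Fgf2 (2.01) were not called without coculture replicate 2, and Fgfr1 not with the 5 arrays alone, and Fgf2 (2.46) not without culture replicate 3. Pdgfrb, the receptor that drives stellate cell growth, was at 10.50 and 10.64 against 11.30, 11.43 and 11.28 (-0.76 ± 0.22). Its call was kept without culture replicate 1 alone among the 5 arrays and otherwise lost (-0.83 to -0.70). Pdgfra (0.14 ± 0.36, with 0.64 and 0.98 on other probe sets) and Hgf (-0.50 ± 0.46) were not called.

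Among 9 imprinted growth genes 4 were called lower and 1 higher, against 2 and 0 in the fit lacking coculture replicate 2. Beside Mest, Plagl1, a zinc finger regulator of imprinted genes, was at 9.02 and 9.04 in coculture against 10.47, 10.22 and 10.85 in culture (-1.48 ± 0.23), and its groups were separate. Peg3 was at 9.38 and 8.33 against 6.99, 6.94 and 7.75 (1.63 ± 0.39) but not called without coculture replicate 2 (1.11) or with the 5 arrays alone. Of 12 axon guidance genes 1 was called higher, 2 lower and 9 not called. Of 11 Wnt pathway genes 1 was called lower and 0 higher, a share near the background of 7.03%. Ntn1, the netrin-1 gene, was at 8.48 and 8.76 against 10.60, 10.41 and 10.98 (-2.04 ± 0.26), and the Wnt receptor Fzd8 fell by 2.09 ± 0.36.

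Of 17 markers of quiescence and retinoid handling 8 were called lower, 0 higher and 9 not called (median -1.26). Reln, a secreted glycoprotein that marks stellate cells, was at 8.10 and 9.46 in coculture, against 10.97, 10.83 and 11.93 in culture and 11.52 to 12.26 in quiescent cells. Aldh1a1, which oxidises retinal, was at 8.16 and 9.16 against 11.80, 11.53 and 11.90 (-3.08 ± 0.57), and at 6.56 to 8.45 in quiescent cells. Pth1r, the parathyroid hormone receptor, was at 6.48 and 6.66 against 8.04, 8.27 and 8.24, and at 8.68 to 9.42 in quiescent cells. Each of these 3 genes had coculture arrays below all culture arrays and was called without any 1 of the 5 arrays. Lrat, which esterifies retinol for storage, was at 6.44 and 9.53 against 8.73, 9.17 and 11.36 and was not called (-1.77 ± 1.30). Its quiescent arrays lay between 3.22 and 6.70. For Aldh1a1 and Lrat all quiescent arrays were thus below all culture arrays, and a level below culture was not a level below quiescent cells. Without coculture replicate 2 the list had 4 called lower and without coculture replicate 3 it had 7. The wider list of stellate cell markers, whose summed level was lowest on coculture replicate 2, is given above, and its part in the decreases of quiescence, lineage and matrix genes was not tested.

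Of 21 transcription factors of the stellate lineage 6 were called lower and 1 higher (median -0.77), against 3 and 1 in the fit lacking coculture replicate 2. Hlx, a homeobox gene of liver mesenchyme, was at 4.37 and 5.39 in coculture against 7.69, 7.49 and 7.96 in culture (-2.83 ± 0.35). Mef2c was at 3.87 and 4.19 against 6.34, 6.34 and 6.32 (-2.30 ± 0.40), and Ets1 at 9.70 and 9.56 against 10.44, 10.65 and 10.58 (-0.93 ± 0.13). Prrx1, a mesenchymal homeobox gene, was the 1 called higher, at 7.51 and 7.89 against 5.48, 5.94 and 6.11 (1.86 ± 0.38). All 4 genes were called without any 1 of the 5 arrays. The lineage regulators Lhx2 (-1.22 ± 0.35) and Tcf21 (-1.23 ± 0.32) were called lower but not without coculture replicate 2 (Lhx2 -0.86, Tcf21 -1.15) or culture replicate 3 (Lhx2 -1.07, Tcf21 -1.09), and Tcf21 not without coculture replicate 3 (-1.32). Of 21 immediate early genes 1 was called higher and 2 lower, and one of these, Klf2, which is induced by flow in endothelium, was at 7.25 and 7.46 against 8.88, 9.11 and 9.07 (-1.67 ± 0.23).

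Fibrillar collagens did not pass the test in coculture, with 0 of 6 called in either direction and a median of 0.17. Col1a1 was at 8.79 and 10.17 in coculture against 9.23, 8.88 and 9.16 in culture, and Col3a1 at 11.12 and 12.98 against 12.30, 12.28 and 12.12. In both genes coculture replicate 3 was the highest of the 5 arrays and replicate 2 the lowest. Col1a2 was at 10.33 and 11.31 against 9.59, 9.80 and 10.23 and narrowly missed the threshold (0.95 ± 0.31, adjusted p = 0.0531, limma, with 1.61 on another probe set), while array weights (1.02) or the removal of coculture replicate 2 (1.44), of culture replicate 3 (1.13) or of quiescent replicate 4 (0.95) brought it past the threshold. Of 19 genes of collagen processing and cross-linking 4 were called higher and 1 lower, against 2 and 0 in the fit lacking coculture replicate 2. The cross-linking enzyme Lox (0.70 ± 0.38) was not called. Pcolce2, an enhancer of procollagen processing, was at 6.44 and 5.70 against 2.21, 2.27 and 1.75 (3.99 ± 0.64).

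Of 6 small proteoglycans, which bind collagen fibrils, 4 were called lower and 0 higher, with a median of -1.90. Lum (lumican) was at 9.04 and 11.35 in coculture against 12.23, 12.34 and 12.61 in culture, Prelp at 9.64 and 11.25 against 12.80, 12.60 and 12.76, and Bgn (biglycan) at 11.40 and 12.32 against 12.90, 12.72 and 12.81. In all 6 genes coculture replicate 2 was the lowest of the 5 arrays. Without coculture replicate 2 none of the 6 was called, with Lum at -1.04, Prelp at -1.47, Bgn at -0.49 and Fmod (fibromodulin) at -2.84, and with the 5 arrays alone Lum and Bgn were not called. Col14a1, which also coats fibrils, was at 8.79 and 10.34 against 11.73, 11.79 and 12.14, and was not called without coculture replicate 2 (-1.55).

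Matrix glycoproteins changed in both directions, with 8 of 28 called lower and 3 higher, against 3 and 4 in the fit lacking coculture replicate 2. The 3 increases were Fbln2 (fibulin 2), at 6.54 and 7.17 in coculture against 2.68, 3.14 and 1.24 in culture, the large proteoglycan Vcan (versican), at 6.71 and 7.33 against 3.26, 3.83 and 2.40, and Postn (periostin), at 12.09 and 12.53 against 10.98, 11.07 and 11.05. Each of them was called without any 1 of the 5 arrays. Postn was at 11.19 to 11.82 in quiescent cells, above its culture and below its coculture arrays. Fbln2 is also a marker of portal fibroblasts, whose other markers Thy1 (1.03 and 0.87 in coculture against 1.38, 1.49 and 1.20 in culture) and Cd34 (0.99 and 0.92 against 1.61, 1.11 and 1.16) were at background. Fbln5, an elastic fibre gene, fell by 2.09 ± 0.39 and the laminin gene Lamc1 by 1.40 ± 0.28, with -0.57 on another Lamc1 probe set. Chosen after their values were seen, Sdc1, a cell surface proteoglycan gene, was at 6.49 and 7.56 against 2.01, 2.89 and 2.22, and Pdpn (podoplanin) at 9.52 and 10.16 against 7.02, 7.06 and 4.08, with Pdpn not called with the 5 arrays alone.

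Transforming growth factor beta genes showed few calls, with 1 of 27 higher and 1 lower. Tgfb2, a ligand, was at 6.41 and 6.17 in coculture against 9.02, 8.62 and 8.41 in culture (-2.39 ± 0.27), with coculture arrays well below the culture arrays. Tgfbr1, a receptor gene, was called at an adjusted p of 0.0422 (0.85 ± 0.27, limma), and that call was lost without any 1 of the 5 arrays (0.60 to 1.10). Tgfb1 (-0.03 ± 0.40), Tgfbr2 (-0.37 ± 0.23) and the target gene Ccn2 (-0.01 ± 0.35) were not called. Of 13 BMP genes 4 were called lower and 1, Grem1, higher, while the fit lacking coculture replicate 2 called Gdf2 alone. The 4 included the ligand gene Gdf2 at 6.82 and 8.37 against 10.78, 10.55 and 11.05 (-3.20 ± 0.51) and Bmp4 at 6.14 and 5.90 against 8.65, 8.55 and 8.40, with Bmp4 not called without coculture replicate 2 (-2.64) or 3 (-2.40).

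Smooth muscle contractile genes, which define the myofibroblast, had 1 of 21 called higher and 3 lower, against 0 and 2 in the fit lacking coculture replicate 2 and 1 and 1 in that lacking replicate 3. Acta2, the smooth muscle actin gene, was at 12.63 and 12.18 in coculture against 13.12, 12.89 and 12.42 in culture and was not called (-0.40 ± 0.23), with overlapping groups. Des, the desmin gene, was at 8.06 and 7.61 against 8.80, 8.45 and 7.99 (-0.58 ± 0.35) and Vim, the vimentin gene, at 12.23 and 12.79 against 12.51, 12.56 and 12.86 (-0.13 ± 0.13). Neither was called, although Vim was without coculture replicate 3 (-0.41). Itga8 was the one decrease that stayed in all 5 fits without 1 array. Cnn1 (calponin 1) was at 5.53 and 4.28 against 3.28, 3.41 and 1.61 but was not called without coculture replicate 2 (1.51) or culture replicate 3 (1.56), with array weights (1.62) or with the 5 arrays alone.

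Interferon response genes were not called in either direction (0 of 27, median 0.32), and in them 1 culture array stood apart. Culture replicate 3 was the lowest culture array in 27 of 27 genes, by a median of 2.66 below the mean of the other 2, and the lowest of the 5 arrays in 26. Coculture replicate 2 exceeded replicate 3 in 25 of 27. Ifit1, an antiviral gene, was at 10.49 and 9.31 in coculture against 10.60, 11.03 and 6.78 in culture, and Irf7, the interferon regulatory factor, at 9.68 and 8.74 against 7.89, 8.30 and 4.07. Rsad2 was at 8.83 and 5.98 against 9.31, 9.77 and 3.27. In each of these genes culture replicate 3 stood well below the other culture arrays. This array was also the lowest culture array in 7 of 7 interleukin, 9 of 11 acute phase and 11 of 14 NF-kB genes. It was so in 3199 of all 7823 genes, in 3 of 18 mitosis genes and in 0 of 6 small proteoglycans. The culture level of several lists described above thus includes 1 lower array. With 1 array left out, 0 to 4 of the 27 were called, and with the replicate number as a block 6.

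**Figure D4:**
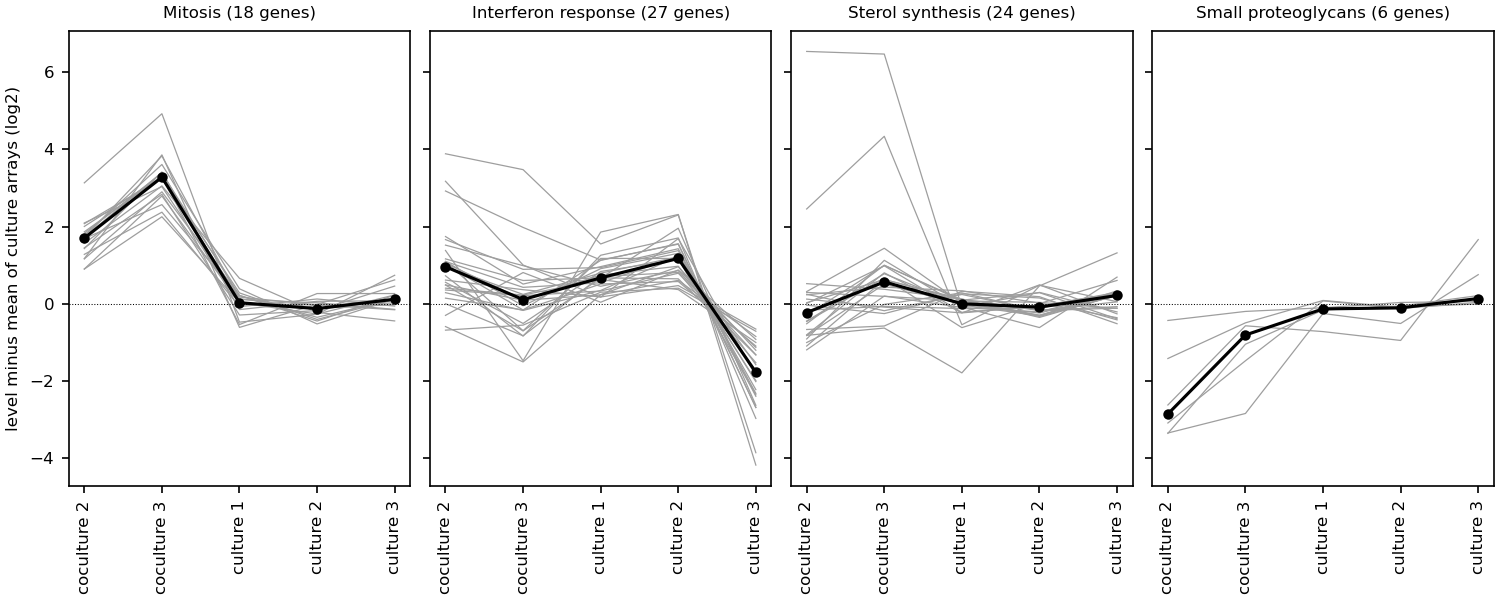
Level on each array minus the mean of the 3 culture arrays (log2, y axis) for the tested members of 4 lists, 1 thin line per gene and the median in black, with coculture arrays left of culture arrays. Mitosis genes are highest on coculture replicate 3, interferon genes lowest on culture replicate 3, and small proteoglycans lowest on coculture replicate 2.

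The 2 coculture arrays differed from each other by at least 2-fold in 591 genes (7.55%), against 193 to 810 genes for pairs of culture arrays. Several of the widest gaps were in genes lower on coculture replicate 2. The chemokine scavenger gene Ackr3 was at 1.46 and 8.78 in coculture against 4.95, 6.26 and 7.31 in culture, Sparcl1 at 1.78 and 8.47 against 6.61, 8.32 and 10.30, and the protease inhibitor gene Serpina3n at 3.51 and 9.19 against 3.16, 4.61 and 2.66. None of these 3 genes was called, and for each the mean of the coculture arrays describes neither array. In the other direction coculture replicate 2 exceeded replicate 3 in Sprr1a, a squamous envelope gene, with 8.38 and 3.24 against 2.24, 2.23 and 1.74, and in the integrin gene Itga4, with 6.34 and 2.98 against 2.26, 2.04 and 1.86. The call of Sprr1a was lost without coculture replicate 2 (1.17) and with the 5 arrays alone. What distinguished the 2 coculture arrays was not tested.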

How the data were processed

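Total RNA of stellate cells was measured on 1 oligonucleotide array per sample. The authors deposited log2 expression values per probe set, for which the submitters' processing notes name GCRMA, a method that subtracts modelled background, normalises arrays by quantiles and summarises probes. The sources used here give no version or settings for it, and folds that start near background depend on this step. The table held 45101 probe sets and 0 value columns without a sample. Of these 64 were controls, 34945 had 1 gene symbol, 932 several and 9160 none, and only those with 1 symbol were used. For each of 18193 genes the probe set with the largest average on all 16 arrays was kept. The 7823 genes with log2 5 or more on at least 2 arrays were tested with limma 3.58.1 in R 4.3.3 (lmFit, eBayes with a trend on mean expression) as 5 group means over all 16 arrays, 11 residual degrees of freedom, two-sided, with Benjamini-Hochberg adjustment and a threshold of 0.05. The groups of 2 and 3 arrays thus share 1 estimate of the spread with the other groups. The fit was tested on simulated data.

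Named genes are the 20 largest increases and 20 largest decreases among called genes whose arrays do not overlap between the groups (unnamed clones skipped), up to 6 called members of each list with the smallest adjusted p, a fixed set of activation and cytokine genes, and markers. Other genes of a list given with values, and those so marked, were chosen after their values were seen. The members and lists were chosen with earlier results of these data known, and lists are described by counts and medians with no test. Of 1316 gene names written in the lists, 1230 were on the array. Of the 7823 genes, 6414 matched a RefSeq promoter (GRCm38.p6), of which the 250 bases before the start were searched. The alternatives were the 5 arrays alone, other filters, averaging a gene's probe sets, centring, array weights, no trend, the replicate number as a block and leaving out each array, of which the arrays of the other groups were added after seeing the data.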

Additional observations from a re-analysis of the deposited data

Results flagged for a closer look

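Among the genes whose quiescent levels are given above, 3 had 1 of the 5 quiescent arrays far from the other 4. For Mmp13 the highest quiescent array stood at 8.16, with a gap to its neighbour of 0.83 of the whole range. For Reln the lowest quiescent array stood at 11.52 (gap 0.743 of the range), and for Fgfr2 the lowest stood at 8.95 (0.776). In all 3 genes the array was quiescent replicate 4, and without it 1400 genes were called, against 1205 in the main fit. Chance marks about 1 in 20 such groups taken singly, a rate that does not treat flags on 1 shared array. What set this array apart was not tested. The coculture and culture groups, with 2 and 3 arrays, are too small for this rule.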

How the results depend on the processing

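Of 212 named genes that were called, 0 changed direction under any of 25 alternatives, and 87 lost the call without coculture replicate 2, 34 without coculture replicate 3, 22, 22 and 41 without culture replicates 1, 2 and 3, and 65 with the 5 arrays alone. The 1205 calls (655 higher, 550 lower) became 601 (307 and 294) with the 5 arrays alone. Without any 1 of the 16 arrays they ranged from 446 to 1400 (295 to 743 higher, 151 to 657 lower), highest without quiescent replicate 4. The lowest total and the 295 and 151 came without coculture replicate 2, 429 higher without coculture replicate 3 and 358 lower without culture replicate 3. Centring each array moved the median of all genes by 0.03 and gave 594 higher and 613 lower. Coculture and culture share replicate numbers 2 and 3, which the labels do not tie to an animal or day, so the numbers do not establish pairs. With the replicate block 1188 genes were called, and deviations of same-numbered arrays correlated with 0.309 and 0.537, but those of coculture 2 and culture 1 with 0.45. With 2 coculture arrays the deviations are exact opposites, so these values do not show pairs. The genes that changed sign were all uncalled, namely Col1a1 without coculture replicate 3 (-0.30), Col3a1 with the mean of probe sets (0.083) or without coculture replicate 2 (0.75), Vim without coculture replicate 2 (0.15), Tgfbr2 with the mean of probe sets (0.0001), Tgfb1 with array weights (0.32), the block (0.045) or without culture replicate 1 (0.045) or 3 (0.13) or coculture replicate 2 (0.19), Ccn2 with the block (0.15) or without culture replicate 1 (0.15) or coculture replicate 3 (0.22), Pdgfra with the block (-0.054) or without culture replicate 1 (-0.054) or coculture replicate 3 (-0.49), and Tnfrsf1a with the block (0.094) or without culture replicate 1 (0.094) or 2 (0.072) or coculture replicate 2 (0.079). Leaving out 1 array gave -0.30 to 1.08 for Col1a1, -1.11 to 0.75 for Col3a1, -0.28 to 0.19 for Tgfb1, -0.24 to 0.22 for Ccn2, -0.49 to 0.77 for Pdgfra, -0.22 to 0.094 for Tnfrsf1a and -0.41 to 0.15 for Vim. The cause was not tested. Other probe sets of 97 called named genes (154 probe sets) all had the same sign, 12 of them much smaller. Among genes of the text, others were larger by over 1.5 times, beside Col1a2 and Pdgfra, at 3.21 for Il1rap, 4.14 for Cp, 1.29 for Hif1a, -1.20 for Pdgfrb, 3.25 for Prrx1 and, not called, -0.83 for Hgf and -0.21 for Vim, while Col3a1, also not called, was at 0.35 on another set against -0.18. In 100 bases, which lie within the 250, motif shares were 17.6% (AP-1), 42.9% (NF-kB) and 33.3% (cell cycle homology region), against 1.04%, 0.437% and 2.92% of all promoters.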
